A study of Mus musculus with 8 samples.

Results

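The genes described here encode the nuclear-encoded parts of the mitochondrial respiratory chain and of the ATP synthase. They were taken as every non-control probe whose name in the array files begins like a complex I (Nduf), complex II (Sdh), complex III (Uqcr, Cyc1), complex IV (Cox4 to Cox8), cytochrome c (Cycs) or ATP synthase (Atp5) gene. That gave 123 probes for 85 genes, of 41174 probes and 27729 gene names on the array. Of the 85 genes, 3 carry such a name in the files but are no subunits under their current symbols (Dmac2, Dmac2l and Emc8), which leaves 82. Cox4i2, Cox7b2 and Cox8c, forms of complex IV subunits best known from lung and testis, were above background on none of the 8 arrays and were not tested. The remaining 79, called the subunit genes below, include the electron carrier cytochrome c and the supercomplex factor Cox7a2l, and each was above background on all 8 arrays. Ndufa4, whose name begins like a complex I gene, is counted with the general subunits of complex IV.

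Complexes I and II pass electrons from NADH and succinate to coenzyme Q, complex III passes them on to cytochrome c, and complex IV reduces oxygen. The proton gradient that complexes I, III and IV build drives the ATP synthase, complex V. Complex IV exists in tissue forms: Cox6a2, Cox7a1 and Cox8b are the forms of heart and skeletal muscle, and Cox6a1, Cox7a2 and Cox8a are their counterparts in other tissues. The muscle forms are known to take over as the heart matures.

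All samples came from hearts of mouse embryos at stage E10.5 of the minKGFP transgenic line, in which a bacterial artificial chromosome with the minK (Kcne1) locus drives green fluorescent protein. Heart cells were sorted by fluorescence into 4 GFP-high samples, labelled as conduction system cells, and 4 GFP-low samples, labelled as chamber myocardium, so both groups carry the transgene and the GFP-low cells are the comparison. The samples are called biological replicates; the labels used here do not say how many embryos each pooled. Each sample gave 5 ng of RNA, which was amplified before 2 ug of product was labelled and put on a 1-colour Agilent array.

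Between 36.3% and 50.7% of the spots of an array were well above background, lowest in GFP-high replicate 3 and highest in GFP-low replicate 2. The reporter's own gene, Kcne1, differed by 1.29 ± 0.35 (SE, log2, limma adjusted p = 0.202) in favour of GFP-high. All 12 cardiomyocyte markers were measured, 11 of 12 had a positive difference, and their median difference was 0.33. Their summed level, as multiples of each array's 75th percentile, was 3303 to 5199 in GFP-high and 2287 to 3969 in GFP-low. The groups' ranges overlap. Of 5 leukocyte markers, 2 were tested, with summed levels of 10.8 to 15.3 in GFP-high and 3.53 to 5.97 in GFP-low, while Ptprc and Csf1r were above background on no array. These ranges do not overlap, and Lyz2, a lysozyme gene of macrophages, makes up most of the sum with a difference of 1.46 ± 0.24 (limma adjusted p = 0.0948). Endothelial (1.37 to 5.24 and 1.76 to 5.42), mesenchymal (2.13 to 5.29 and 2.79 to 12.1) and epicardial (3.53 to 5.26 and 2.67 to 3.83) sums overlapped between the groups, with Pecam1, Tek and Upk3b above background on no array. Smooth muscle markers summed to 199 to 336 in GFP-high and 119 to 310 in GFP-low, and erythroid markers to 25.6 to 185 and 12.7 to 172. The part of these other cell types in the differences below was not tested. In sorted bulk samples, fewer cells of a type and less RNA per cell cannot be told apart.

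Some of these genes share promoter motifs, though each motif searched was missing from most of their windows. RefSeq promoter windows of 300 bases (250 before and 50 after the start, assembly GRCm38.p6) were at hand for 67 of the 82 genes, as 72 start sites. The motif GCGCANGCG of NRF-1, a factor known for driving respiratory genes, occurred on either strand in 22 of the 72 windows (30.6%), against 6.25% of all 32851 windows. CCGGAAG, the core bound by ETS factors such as GABP, was in 16 of the 72 (22.2%, all windows 8.86%), and AANATGGC, a YY1 motif, in 17 of the 72 (23.6%, all windows 6.05%). The estrogen-related receptor site AAGGTCA was in 8 (11.1%, all windows 4.72%) and GGGCGG, the SP1 core, in 29 (40.3%, all windows 35.7%). The MEF2 motif CTAAAAATA was in 0 (all windows 0.517%) and TATAAA in 8 (11.1%, all windows 13.6%). These motifs do not contain each other, though neighbouring matches can overlap, and a match describes letters, not binding. The windows compared were not matched for base composition. No window was at hand for the muscle form Cox6a2. The promoters below are printed because their genes belong to isoform pairs tested below: the muscle form Cox7a1, the general subunit Cox6a1 and the ATP synthase gene Atp5g2. They are single examples and do not compare muscle with general forms. Each is the 250 bases before the start, in the direction of transcription, with matches to any of the 7 motifs in capitals.

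Cox7a1, chr7:30183921-30184170, plus strand: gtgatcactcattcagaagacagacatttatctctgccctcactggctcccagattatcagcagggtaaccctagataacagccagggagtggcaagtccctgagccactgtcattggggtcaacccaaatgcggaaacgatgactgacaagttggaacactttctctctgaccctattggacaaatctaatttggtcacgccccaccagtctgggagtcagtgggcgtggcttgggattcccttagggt
Cox6a1, chr5:115348959-115349208, minus strand: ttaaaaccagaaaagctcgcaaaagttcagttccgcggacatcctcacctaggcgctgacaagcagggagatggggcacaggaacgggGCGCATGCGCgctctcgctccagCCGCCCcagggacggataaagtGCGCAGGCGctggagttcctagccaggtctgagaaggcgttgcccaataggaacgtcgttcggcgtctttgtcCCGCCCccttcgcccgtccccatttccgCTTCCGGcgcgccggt
Atp5g2, chr15:102671048-102671297, minus strand: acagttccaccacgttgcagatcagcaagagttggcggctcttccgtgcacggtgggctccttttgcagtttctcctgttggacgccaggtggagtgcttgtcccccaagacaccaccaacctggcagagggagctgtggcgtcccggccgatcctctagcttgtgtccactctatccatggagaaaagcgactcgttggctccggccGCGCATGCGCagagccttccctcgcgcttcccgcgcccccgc

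Cox6a1 holds NRF-1 matches whose first bases lie at -162 and -117 from the start, SP1 matches at -139 and -44 and an ETS match at -16. Atp5g2 holds an NRF-1 match at -42. The matches at -162 and -42 are palindromes and read the same on the other strand. Cox7a1 holds none of the 7 motifs in this stretch. The probes that read the genes are 60 bases long, and 25 of the 123 span an intron, so they match spliced RNA. The Cox7a1 probe (mm9 chr7:30970337-30970948, a span of 612 bases) and the dimmer of the probes of the complex I subunit Ndufa7 (mm9 chr17:33961595-33962574, a span of 980 bases) are of this kind.

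Cox7a1 probe: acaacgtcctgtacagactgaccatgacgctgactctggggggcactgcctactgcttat
Ndufa7 probe: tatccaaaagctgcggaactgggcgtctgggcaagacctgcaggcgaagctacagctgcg

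Values below are log2 of the processed signal relative to the 75th percentile of the array, with the brightest probe standing for a gene. Differences are GFP-high minus GFP-low, ± the fit's standard error. Adjusted p-values come from limma with Benjamini-Hochberg adjustment over all 12875 genes tested, and a gene is called when its adjusted p is under 0.05.

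None of the 79 subunit genes was called in either direction, where 0.140% of all genes tested were called, 0.0699% higher and 0.0699% lower in GFP-high. At an unadjusted limma p under 0.05, 8 subunit genes were higher (10.1%, all genes 7.94%) and 0 were lower (all genes 6.38%). The 4 GFP-high arrays all lay above the 4 GFP-low arrays for 8 subunit genes (10.1%, all genes 5.86%), and the reverse held for 0 (all genes 3.08%). Of the 79, 77 had a difference above 0 (all genes 62.1%), and 66 were above the median gene, which stood at 0.16. Their differences ran from -0.07 to 1.29 with a median of 0.32, and the median standard error of a single gene was 0.25. With this scaling, the shares above 0 and without overlap on the higher side exceed those of all genes. The unadjusted share on the higher side is near that of all genes, and both shares on the lower side are below those of all genes.

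**Figure D1:**
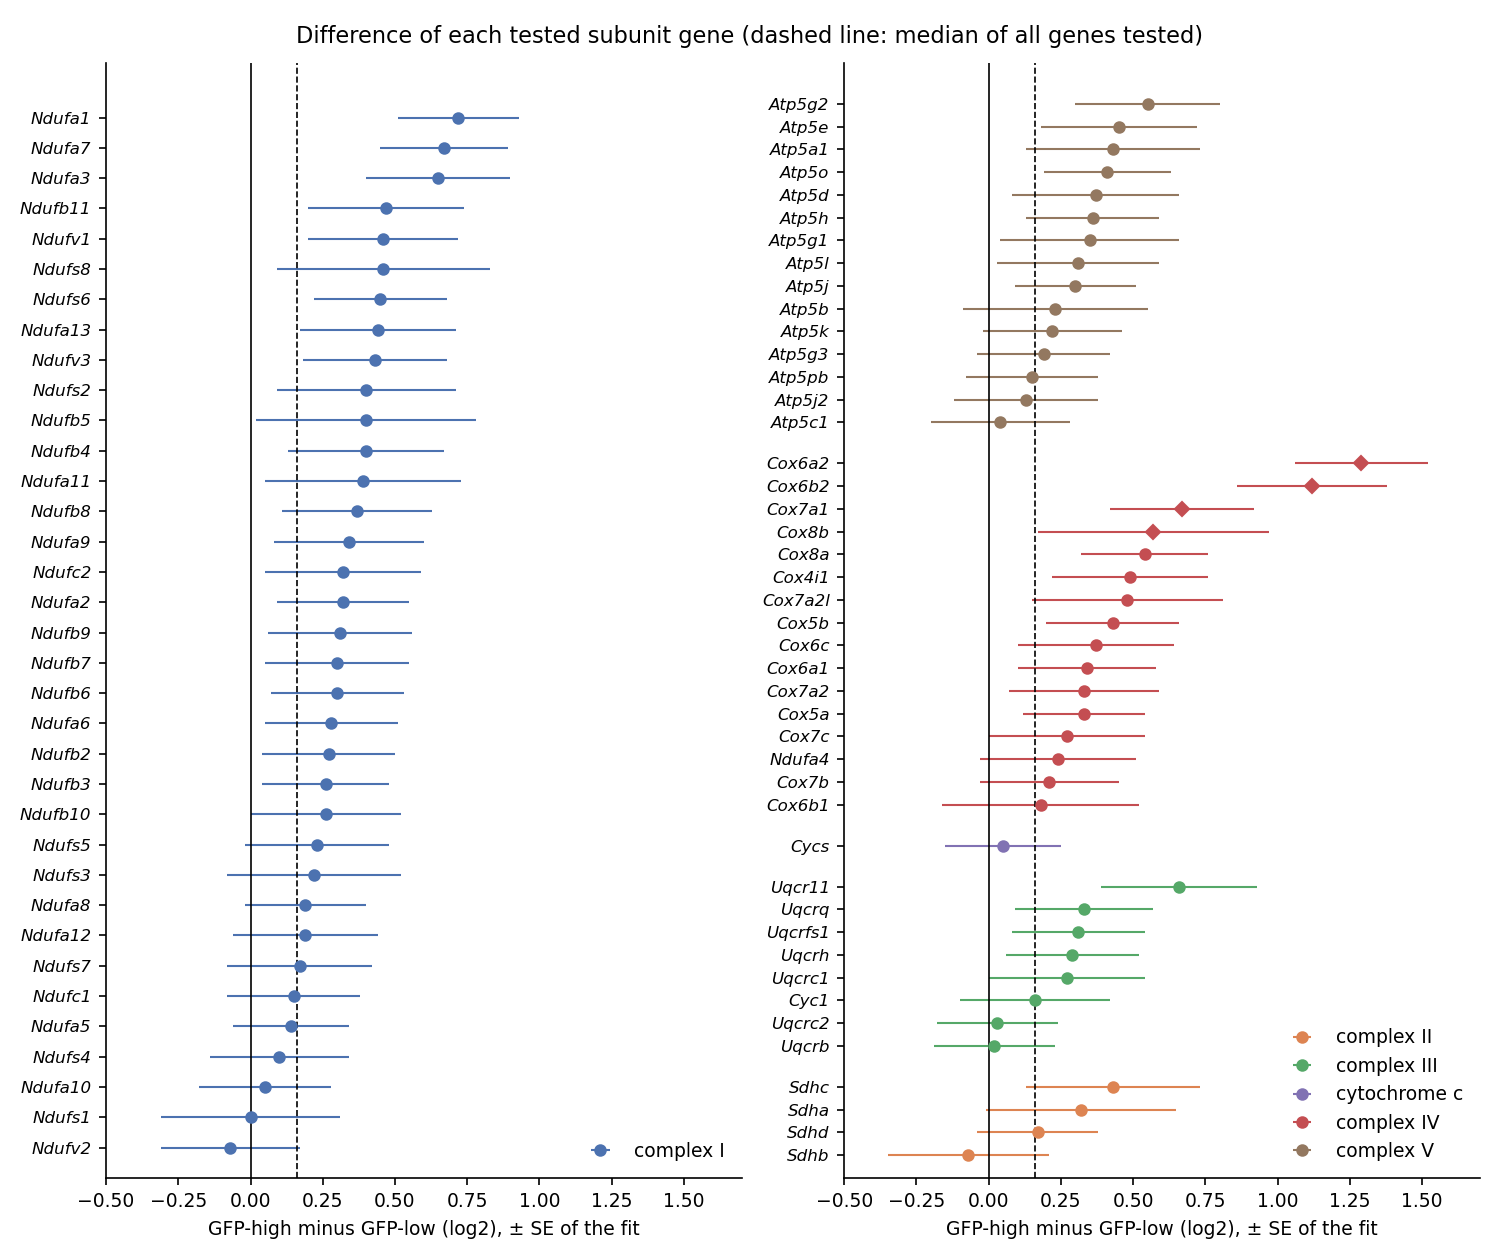
Difference between GFP-high and GFP-low (log2, horizontal) for each of the 79 subunit genes, with the standard error of the fit, by complex; diamonds are the muscle and testis forms of complex IV, the solid line is 0 and the dashed line the median of all genes (0.16). Most points lie between 0 and 0.55, and Cox6a2 and Cox6b2 stand apart at 1.29 and 1.12.

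The size of this common difference moved with the way the arrays were scaled. The subunit genes are bright, with a median level of 6.55 against 0.55 over all genes tested. Their median difference of 0.32 became 0.22 when the 75th percentile was taken over probes above background on all arrays, and 0.15 with normexp background correction. It became 0.08 with normexp and quantile normalization, 0.06 with quantile normalization and 0.06 with cyclic loess. The median over all genes was 0.06, 0.10, 0.05, 0.09 and 0.04 in the same 5 settings, so that under quantile normalization the subunit median was lower than that of all genes. The number of subunit genes above 0 was 70, 64, 58, 57 and 50 in those settings. At an unadjusted limma p under 0.05, 8 were higher as reported and 4, 3, 3, 3 and 4 in those settings, with 0 lower in each. The cause was not tested. The median was 0.40 on slide 1, which held replicates 1 and 2 of both groups, and 0.24 on slide 2.

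**Figure D2:**
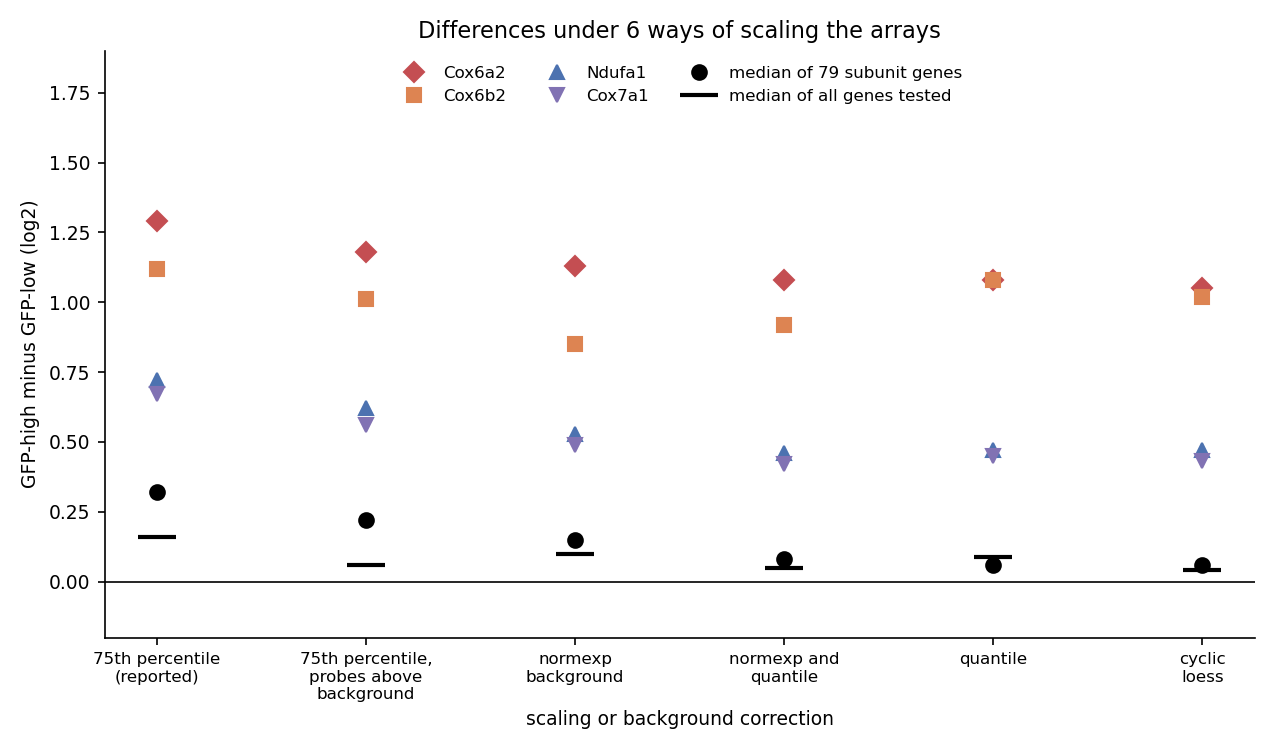
Difference between GFP-high and GFP-low (log2, vertical) under 6 ways of scaling or background correction (horizontal) for 4 genes, for the median of the 79 subunit genes and for the median of all genes tested. The subunit median moves from 0.32 to 0.06 and meets the median of all genes, and falls under it with quantile normalization, while Cox6a2 stays at 1.05 or above.

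Complex I, the entry for electrons from NADH, had 35 tested genes, of which 34 were above 0, with a median of 0.31 that was 0.20 without GFP-low replicate 3. The 7 core subunits, which carry the redox centres, had a median of 0.22, and the 28 accessory subunits, which surround them, had 0.32. Ndufa1, a small accessory subunit of the membrane arm (probe at mm9 chrX:34727627-34727686), had the highest difference. It read 7.09, 7.08, 6.88 and 7.17 in GFP-high replicates 1 to 4 and 6.32, 6.14, 6.38 and 6.50 in GFP-low. The groups do not overlap, and the difference was 0.72 ± 0.21 (1.65-fold, limma adjusted p = 0.235). Its second probe gave 0.77.

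Ndufa7, an accessory subunit of the matrix arm, read 5.02, 4.98, 4.62 and 4.84 in GFP-high and 4.10, 4.33, 4.06 and 4.28 in GFP-low, again without overlap, with a difference of 0.67 ± 0.22 (limma adjusted p = 0.256). Ndufa3, an accessory subunit of the membrane arm, read 5.61, 6.01, 5.58 and 5.87 in GFP-high and 5.01, 5.16, 4.81 and 5.49 in GFP-low. Its lowest GFP-high array lies just above the highest GFP-low array, and the difference was 0.65 ± 0.25 (limma adjusted p = 0.303). These 3 accessory subunits are the only complex I genes whose groups do not overlap.

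At the other end stood 2 core subunits. Ndufv2, an iron-sulphur subunit of the NADH-binding module, differed by -0.07 ± 0.24, and Ndufs1, the largest iron-sulphur subunit, by 0.00 ± 0.31. Ndufs1 read 5.04, 4.98, 4.89 and 4.00 in GFP-high and 4.87, 4.55, 5.11 and 4.38 in GFP-low and without GFP-high replicate 4, its lowest array, the difference was 0.24. Ndufb7, the brightest complex I probe at 8.55, differed by 0.30 ± 0.25, and by -0.04 with quantile normalization. The flavin-bearing subunit Ndufv1, which takes the electrons from NADH, differed by 0.46 ± 0.26 (limma adjusted p = 0.431).

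Complex II, succinate dehydrogenase, is also an enzyme of the citric acid cycle, and its 4 genes had a median of 0.25, which was 0.12 without GFP-high replicate 1. The membrane anchor Sdhc read 5.13, 5.42, 4.75 and 5.32 in GFP-high and 4.63, 5.10, 4.12 and 5.08 in GFP-low, with overlap, and differed by 0.43 ± 0.30 (limma adjusted p = 0.527). The catalytic subunit Sdha differed by 0.32 ± 0.33, with 0.89 on slide 1 and -0.25 on slide 2. Sdhd, the other anchor and the brightest probe of the complex, differed by 0.17 ± 0.21, and the iron-sulphur subunit Sdhb by -0.07 ± 0.28. The complex had medians of 0.34 on slide 1 and -0.03 on slide 2, so its direction was not the same on both.

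Complex III had 8 tested genes, all above 0, with a median of 0.28 that shrank to 0.01 with quantile normalization. Uqcr11, its smallest subunit, read 6.46, 6.61, 6.17 and 6.48 in GFP-high and 5.64, 6.21, 5.25 and 6.0 in GFP-low. GFP-low replicate 2 lies above GFP-high replicate 3, and the difference was 0.66 ± 0.27 (limma unadjusted p = 0.0422, adjusted p = 0.334). The brightest probe, that of the ubiquinone-binding protein Uqcrq, differed by 0.33 ± 0.24. The core protein Uqcrc2 (0.03 ± 0.21) and Uqcrb (0.02 ± 0.21) had the smallest differences, and both turned negative with normexp, quantile and cyclic loess scaling.

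Cytochrome c, which carries electrons from complex III to complex IV, was read by 3 probes. The brightest read 7.30, 7.33, 7.11 and 7.27 in GFP-high and 7.22, 7.30, 7.10 and 7.19 in GFP-low, a difference of 0.05 ± 0.20. The others, which overlap each other (mm9 chr6:50514542-50514601 and chr6:50514522-50514581), differed by -1.29 and -0.65. The first of these read 0.76, 1.14, 2.95 and 1.93 in GFP-high and 3.15, 2.82, 3.32 and 2.63 in GFP-low, with the low values in GFP-high replicates 1 and 2. The gene's direction therefore depends on the probe.

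Complex IV, the oxygen-consuming enzyme, had the highest median of the 5 complexes, 0.40 over 16 genes that were all above the median gene. Its muscle forms are taken first. Cox6a2, the muscle form of subunit VIa (probe at mm9 chr7:135349160-135349219), read 6.95, 7.25, 6.64 and 6.78 in GFP-high and 5.62, 5.61, 5.79 and 5.46 in GFP-low. Every GFP-high array lies above every GFP-low array by a wide margin, and the difference of 1.29 ± 0.23 (2.44-fold) is the largest of all subunit genes. Its adjusted p was 0.112 (limma), so it was not called. In 26 alternatives its difference ran from 1.05 to 1.49 and its limma adjusted p from 0.0158 to 0.823; it was called with a common floor (0.0404) and with a trended, robust fit (0.0158). In these same 2 settings, and in no other tried, 1 of the tested leukocyte markers was called higher too, and its part in the result was not tested. The difference was 1.49 on slide 1 and 1.09 on slide 2.

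Cox7a1, the muscle form of subunit VIIa, read 6.60, 6.93, 6.21 and 6.81 in GFP-high and 5.81, 6.19, 5.88 and 6.0 in GFP-low. The groups barely separate, at GFP-high replicate 3 and GFP-low replicate 2, and the difference was 0.67 ± 0.25 (1.59-fold, limma adjusted p = 0.294). Cox8b, the muscle form of subunit VIII, was dim. It read 1.13, 2.46, 1.88 and 2.29 in GFP-high and 0.93, 2.21, 1.15 and 1.18 in GFP-low, the groups overlap, and the difference was 0.57 ± 0.40 (limma adjusted p = 0.517).

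Cox6b2, the form of subunit VIb known from testis (probe at mm9 chr7:4703488-4703547), was also dim but above background on all arrays. It read 1.92, 2.53, 2.10 and 2.24 in GFP-high and 1.46, 0.73, 1.01 and 1.12 in GFP-low. No arrays overlap, and the difference was 1.12 ± 0.26 (2.17-fold, limma adjusted p = 0.161), with 1.13 on slide 1 and 1.1 on slide 2.

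The 11 general subunits of complex IV had a median of 0.33. Cox8a, the general form of subunit VIII, was the only one without overlap: it read 7.61, 7.83, 7.42 and 7.64 in GFP-high and 7.05, 7.0, 6.98 and 7.31 in GFP-low, a difference of 0.54 ± 0.22 (limma adjusted p = 0.321). Cox5b, a nuclear subunit facing the matrix, was the brightest of all subunit probes at 9.31 and differed by 0.43 ± 0.23. Cox4i1, the common form of subunit IV, differed by 0.49 ± 0.27, Cox6a1 by 0.34 ± 0.24 and Cox7a2 by 0.33 ± 0.26. The lowest were Cox7b (0.21 ± 0.24) and Cox6b1 (0.18 ± 0.34). Without GFP-high replicate 3, its lowest array, Cox6b1 differed by 0.47. The supercomplex factor Cox7a2l differed by 0.48 ± 0.33. Without Cox6a2, Cox7a1, Cox8b and Cox6b2, the median of the remaining 75 subunit genes was 0.31, so these 4 do not set the median of the whole.

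Whether a muscle form differed more than its counterpart was tested within each array, where a shift of the whole array cancels. The log2 difference between the probes of a pair was taken on every array and compared between the groups with an exact two-sided permutation test over the 70 assignments, whose smallest possible p is 0.0286. The difference itself mixes the response of 2 probes and is not read as a ratio of levels; the pairs' probes share no run longer than 8 bases. Of 9 pairs, 6 could be tested, and p-values were adjusted over those 6. Cox4i2 and Cox7b2 were not measured and no probe was named Ndufa4l2.

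Cox6a2 minus Cox6a1 was -1.14, -0.99, -1.1 and -1.33 in GFP-high and -1.89, -2.26, -1.67 and -2.52 in GFP-low. The groups do not overlap, and Cox6a2 was higher in GFP-high by a further 0.95 (1.93-fold, exact permutation p = 0.0286, adjusted 0.0571) beyond Cox6a1. Cox7a1 minus Cox7a2 was -1.06, -0.91, -0.94 and -0.96 in GFP-high and -1.17, -1.45, -1.25 and -1.34 in GFP-low. These too do not overlap, and the excess was 0.33 (1.26-fold, exact permutation p = 0.0286, adjusted 0.0571). It was as large within slide 1 (0.33) and slide 2 (0.34) as over both. The separation depends on the Cox7a2 probe. A second, slightly dimmer Cox7a2 probe differed by 0.41, and against it GFP-low replicate 3 lies above GFP-high replicate 3. With the mean over a gene's probes the excess was 0.30 (exact permutation p = 0.0286, adjusted 0.0571).

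Cox8b minus Cox8a overlapped widely, with an excess of 0.03 (exact permutation p = 0.914), -0.47 on slide 1 and 0.54 on slide 2, so no direction can be given. Cox6b2 minus Cox6b1 gave 0.94 (exact permutation p = 0.0571, adjusted 0.0857), with GFP-high replicate 1 equal to GFP-low replicate 1 at -3.89. Without GFP-high replicate 3, where Cox6b1 was lowest, this excess was 0.68. With quantile and cyclic loess normalization, which act on each probe by its brightness, the adjusted exact permutation p was 0.0429 for Cox6a2, Cox7a1, Cox6b2 and Atp5g2. With normexp background correction it was 0.114 for Cox6a2, Cox6b2 and Atp5g2 and 0.300 for Cox7a1, whose excess was then 0.26 and whose groups overlapped. With normexp and quantile normalization it was 0.0857 for Cox6a2 and Cox6b2, 0.114 for Atp5g2 and 0.257 for Cox7a1. Within 1 slide the smallest possible exact p is 0.333, so single slides give values and no call.

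**Figure D3:**
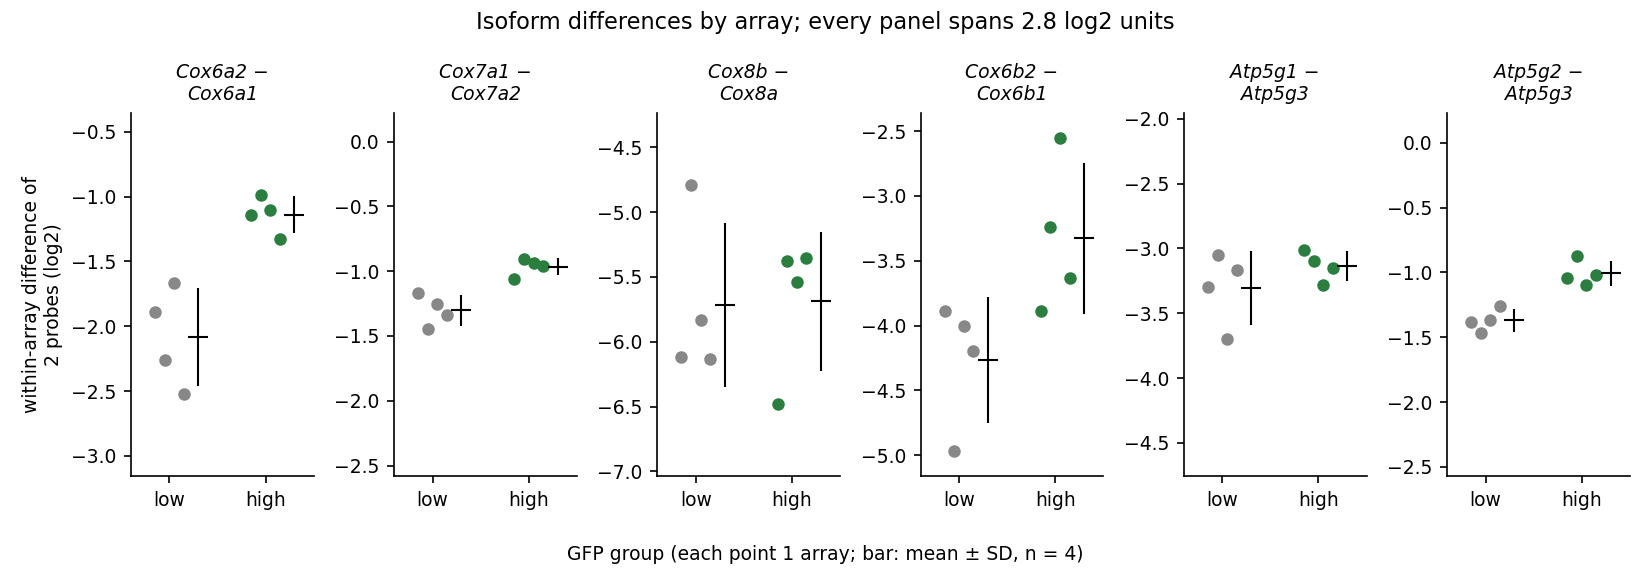
Within-array log2 difference between the probes of 6 isoform pairs (vertical) on the 4 GFP-low and 4 GFP-high arrays, with mean ± SD; all panels have the same height in log2 units but their own position. With the brightest probe of each gene, Cox6a2, Cox7a1 and Atp5g2 separate the groups, by 0.95, 0.33 and 0.37. Cox8b and Atp5g1 overlap and 1 pair of arrays ties for Cox6b2.

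Complex V, the ATP synthase, had 15 tested genes, all above 0, with a median of 0.31: 0.37 for the 5 subunits of the catalytic F1 head and 0.31 for the 10 of the membrane part and stalk. Without GFP-low replicate 3 the median of the complex was 0.14. Atp5g1, Atp5g2 and Atp5g3 encode the same ring subunit with different import sequences. Atp5g2 had the highest difference of the complex. It read 7.09, 7.40, 6.68 and 7.11 in GFP-high and 6.46, 6.57, 6.25 and 6.79 in GFP-low, with GFP-low replicate 4 above GFP-high replicate 3, and differed by 0.55 ± 0.25 (limma adjusted p = 0.356). Atp5g3 differed by 0.19 ± 0.23 and Atp5g1 by 0.35 ± 0.31.

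Within arrays, Atp5g2 minus Atp5g3 was -1.04, -0.87, -1.1 and -1.02 in GFP-high and -1.38, -1.47, -1.37 and -1.26 in GFP-low. The groups do not overlap and the excess was 0.37 (1.29-fold, exact permutation p = 0.0286, adjusted 0.0571), 0.47 on slide 1 and 0.26 on slide 2. Atp5g1 minus Atp5g3 overlapped, with an excess of 0.17 (exact permutation p = 0.343, adjusted 0.411).

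Atp5o, the stalk subunit that confers oligomycin sensitivity, was the only complex V gene without overlap. It read 7.22, 7.32, 6.88 and 7.17 in GFP-high and 6.65, 6.85, 6.59 and 6.87 in GFP-low, so that 6.88 stands against 6.87 at the nearest arrays, with a difference of 0.41 ± 0.22 (limma adjusted p = 0.416). Atp5a1, the alpha subunit and the brightest probe of the complex, differed by 0.43 ± 0.30, and Atp5e, the epsilon subunit, by 0.45 ± 0.27. The gamma subunit Atp5c1 (0.04 ± 0.24) and Atp5j2 (0.13 ± 0.25) were lowest, and both turned negative with normexp, quantile and cyclic loess scaling.

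Probes of a gene mostly shared their direction. Of 25 genes with several tested probes, 4 had probes of opposite sign in the rounded values: Cycs, Ndufv3, Sdha and Atp5pb. Ndufs1, at 0.00 on its brighter probe and counted as above 0 before rounding, gave -0.10 on a dim probe above background on 5 arrays. Before rounding, its probes differ in sign too. Ndufv3, a complex I accessory subunit with splice forms, gave 0.43, 0.46 and -0.25, and Sdha gave 0.32, 0.34 and -0.32, the last from a dim probe above background on 6 arrays. When every probe was fitted on its own, 100 of 108 tested subunit probes were above 0 and none was called (limma), while 10 were higher and 1 lower at an unadjusted p under 0.05. Among all 18482 probes in that fit, 58.7% were above 0 and 7 were called. In either direction, 2569 of them had an unadjusted limma p under 0.05.

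Genes that work with the complexes were taken from lists for the same pathway, and no member of any list was called (limma). Subunits whose names the rule missed had differences above 0. Atpif1, the ATPase inhibitor, differed by 0.49 ± 0.27, Atp5mpl by 0.37 ± 0.23, Atp5md by 0.34 ± 0.34 and Ndufab1, the acyl carrier protein of complex I, by 0.04 ± 0.22. With the mean over the gene's probes Atpif1 differed by 0.05. Uqcr10 (0.41 ± 0.24) and Ndufb1 (0.15 ± 0.27), found by their current symbols, were also above 0.

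Both measured transcripts of the mitochondrial genome had differences below 0, opposite to the nuclear subunits. COX2, a catalytic-core subunit of complex IV, read 6.12, 6.38, 7.70 and 7.26 in GFP-high and 6.97, 7.56, 7.91 and 7.50 in GFP-low, a difference of -0.63 ± 0.40 (limma adjusted p = 0.487). CYTB, the cytochrome b of complex III, read 4.77, 4.73, 6.16 and 5.87 in GFP-high and 5.58, 5.70, 6.43 and 5.84 in GFP-low, a difference of -0.50 ± 0.40 (limma adjusted p = 0.564). Both groups overlap, and the low arrays are GFP-high replicates 1 and 2: the median of the pair was -0.95 on slide 1 and -0.18 on slide 2. It was below 0 in all 25 alternatives computed, from -0.95 to -0.18.

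The 44 assembly factors, which build the complexes, had a median of 0.08, which was 0.19 on slide 1 and -0.07 on slide 2. Of them 26 were above 0 (all genes 62.1%). At an unadjusted limma p under 0.05, 2 were higher (all genes 7.94%) and 2 lower (all genes 6.38%). Uqcc3, needed for cytochrome b of complex III, read 3.09, 3.33, 3.10 and 2.81 in GFP-high and 2.18, 2.26, 2.26 and 2.29 in GFP-low. The groups do not overlap, and the difference was 0.84 ± 0.22 (limma adjusted p = 0.189). Sdhaf3, a maturation factor of complex II, differed by -0.88 ± 0.31 (limma adjusted p = 0.273), but by -0.17 with the mean over the gene's probes.

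The 11 carriers and phosphate-transfer genes had a median of 0.23, with 8 above 0 (all genes 62.1%). Ckmt1, the ubiquitous mitochondrial creatine kinase, read 0.34, 0.18, 0.73 and -0.36 in GFP-high and -0.33, -1.18, -0.38 and -2.20 in GFP-low, with overlap at GFP-high replicate 4, and differed by 1.25 ± 0.46 (limma adjusted p = 0.294). Slc25a4, the ADP/ATP carrier of heart, differed by 0.38 ± 0.22. The 10 coenzyme Q synthesis genes had a median of -0.17, with 4 above 0 (all genes 62.1%). Their median was 0.14 on slide 1 and -0.43 on slide 2. Coq5 differed by -0.63 ± 0.33 and Coq8a by -1.12 ± 0.63. With the mean over the gene's probes Coq8a differed by -0.29.

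The 22 import and chaperone genes had a median of 0.15, which was 0.29 on slide 1 and -0.08 on slide 2. Of them 15 were above 0 (all genes 62.1%), and 2 were lower at an unadjusted limma p under 0.05 (all genes 6.38%). Tomm70a, an import receptor of the outer membrane, read 0.93, 1.61, 2.63 and 1.42 in GFP-high and 3.15, 2.87, 3.79 and 3.06 in GFP-low. Hspd1, the chaperone of the matrix, read 5.23, 5.65, 6.67 and 6.0 in GFP-high and 7.19, 6.92, 7.18 and 7.05 in GFP-low. Both are lower in every GFP-high array than in every GFP-low array, by 1.57 ± 0.40 and 1.20 ± 0.33 in size (differences of -1.57 and -1.20, limma adjusted p = 0.186 and 0.202).

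The 17 tested regulators of mitochondrial gene expression had a median of -0.01, which was 0.48 on slide 1 and -0.44 on slide 2. Of them 8 were above 0 (all genes 62.1%), and 3 were lower at an unadjusted limma p under 0.05 (all genes 6.38%). Ppargc1a, the coactivator PGC-1alpha, read -3.70, 1.16, -0.62 and 1.81 in GFP-high, of which 3 were above background, and 2.03, 3.72, 2.48 and 2.85 in GFP-low. The groups do not overlap, but GFP-high arrays spread widely, and the difference of -3.11 ± 1.09 was not called (limma adjusted p = 0.278). Without GFP-high replicate 1, the lowest array, it was -1.99, and with the mean over the gene's probes it was -1.82. Yy1, which names a motif above, read -1.04, 0.39, -0.15 and 0.15 in GFP-high and 1.21, 0.93, 1.32 and 0.65 in GFP-low, a difference of -1.19 ± 0.35 (limma adjusted p = 0.235). Nrf1, the gene of the NRF-1 factor, differed by 0.13 ± 0.42, Gabpa by -0.71 ± 0.43 and Tfam, which packages mitochondrial DNA, by 0.05 ± 0.24.

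**Figure D4:**
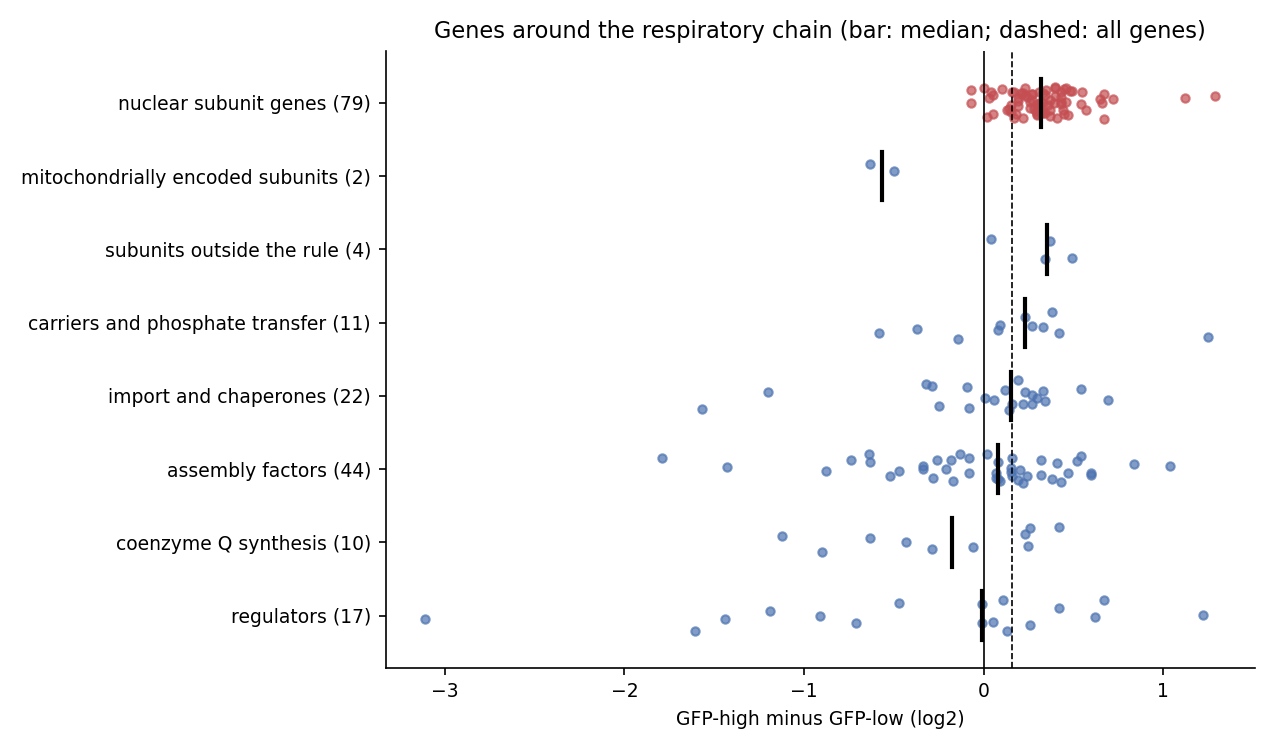
Difference between GFP-high and GFP-low (log2, horizontal) for the 79 nuclear subunit genes and for 7 lists of genes around them, 1 point per gene, with the list's median as a bar, 0 as a solid and the median of all genes as a dashed line. The subunit genes run from -0.07 to 1.29 around a median of 0.32. Subunits outside the rule (0.04 to 0.49) and the mitochondrially encoded pair (-0.63 to -0.50) span less. The other lists span more but are dimmer, with median levels from 5.07 (carriers) down to 0.74 (regulators), against 6.55. Ppargc1a is the lowest point at -3.11 (-1.99 without GFP-high replicate 1).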

How the data were processed

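RNA of 4 GFP-high and 4 GFP-low samples was measured on 1-colour Agilent arrays. Agilent Feature Extraction 10.5.1.1 read the images, per the submitters' processing notes, and the deposited intensity of a spot is background-subtracted and linear, per the file headers. From each array's log2 processed signal the 75th percentile of its non-control spots was subtracted. Spots with outlier flags were left out when the spots of a probe were averaged, not when the percentile was taken. The brightest probe stood for a gene, and genes above background on at least 4 of 8 arrays were tested (12875) with limma 3.58.1 in R 4.3.3, group as the only term. Names follow the reference table of GRCm38.p6; probe coordinates are those of the files (mm9). The number of arrays limits the precision. The fit was tested on simulated data. Genes given per sample followed a rule: isoform pairs, the extremes and brightest of each complex, groups without overlap or an unadjusted p under 0.05, members not tested, probes that differ in sign, and the 2 smallest p of each list. The members and lists were chosen with earlier results of these data known. The marker list of neural cells is not reported here.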

Additional observations from a re-analysis of the deposited data

Results flagged for a closer look

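In 72 groups of 4 arrays (named genes by group), 3 had an array that stood apart from the other 3 by Dixon's criterion, a rate that chance alone gives at about 1 group in 20. The complex IV subunit Cox6b1 read 4.64 in GFP-high replicate 3, where the others read 5.77 to 5.87. The complex I core subunit Ndufs1 read 4.00 in GFP-high replicate 4, with the others at 4.89 to 5.04. Uqcrb of complex III read 6.72 in GFP-high replicate 4, with the others at 6.49 to 6.52.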

How the results depend on the processing

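In the fits tried, the median difference of the subunit genes stayed above 0, but its size did not hold. With quantile normalization the medians were 0.06 for all subunit genes, 0.06 for complex I, 0.01 for complex III, 0.10 for complex IV and 0.05 for complex V. With normexp and quantile normalization those of all subunit genes and complexes III, IV and V were 0.08, 0.03, 0.14 and 0.03, and with cyclic loess 0.06, 0.01, 0.09 and 0.04. Complex III gave 0.11 with normexp, 0.18 with the 75th percentile over probes above background on all arrays and 0.18 within slide 2. The cause was not tested. Of the 79 subunit genes, 77 were above 0 as reported, 64 with normexp, 57 with quantile normalization, 58 with both, 50 with cyclic loess and 69 on slide 2 alone. The shares of all genes above 0 were, in the same order, 62.1%, 59.6%, 57.3%, 56.1%, 52.9% and 54.6%. Signs that turned are given below only for genes whose values are named in the text. Under normexp the sign turned for Atp5c1 (-0.06), Atp5j2 (-0.02), Cycs (-0.12), Sdhd (-0.02), Uqcrb (-0.10) and Uqcrc2 (-0.11). Under quantile normalization it turned for Atp5c1 (-0.25), Atp5g3 (-0.08), Atp5j2 (-0.13), Cycs (-0.18), Ndufa4 (-0.03), Ndufb7 (-0.04), Sdhd (-0.07), Uqcrb (-0.19) and Uqcrc2 (-0.17). With normexp and quantile normalization it turned for Atp5c1 (-0.17), Atp5g3 (-0.11), Atp5j2 (-0.11), Cox6b1 (-0.01), Cycs (-0.18), Ndufa4 (-0.01), Sdhd (-0.10), Uqcrb (-0.17) and Uqcrc2 (-0.15). With cyclic loess it turned for Atp5c1 (-0.25), Atp5g3 (-0.11), Atp5j2 (-0.15), Cox6b1 (-0.03), Cox7b (-0.03), Cycs (-0.22), Ndufa4 (-0.04), Ndufb7 (-0.01), Sdhd (-0.09), Uqcrb (-0.22) and Uqcrc2 (-0.22). The 75th percentile over probes above background turned Atp5c1 (-0.07), Cycs (-0.05), Uqcrb (-0.08) and Uqcrc2 (-0.08), and the mean over a gene's probes turned Cycs (-0.63) and Ndufv2 (0.05). Slide 1 alone turned Uqcrb (-0.06) and Cox8b against Cox8a (-0.47). Slide 2 alone turned Atp5c1 (-0.11), Ndufb7 (-0.04), Sdha (-0.25) and Uqcrc2 (-0.21). The medians of assembly factors and of import and chaperone genes were -0.04 and -0.02 with quantile normalization. With cyclic loess they were -0.07 and -0.04. Ndufs1, at 0.00, gave -0.23 with normexp, -0.15 with quantile normalization, -0.22 with both, -0.19 with cyclic loess, 0.30 on slide 1 and -0.30 on slide 2. Leaving out 1 array at a time gave ranges across 0 for Atp5c1 (-0.06 to 0.15), Uqcrc2 (-0.03 to 0.09), Uqcrb (-0.03 to 0.06), Ndufv2 (-0.17 to 0.02), Sdhb (-0.18 to 0.13), Ndufs1 (-0.12 to 0.24), Cox8b against Cox8a (-0.10 to 0.34) and the medians of coenzyme Q synthesis (-0.29 to 0.09) and regulators (-0.10 to 0.12). The subunit median ran from 0.22 to 0.43, complex I from 0.20 to 0.41, complex II from 0.12 (without GFP-high replicate 1) to 0.34, complex III from 0.19 to 0.36, complex IV from 0.31 to 0.48 and complex V from 0.14 to 0.45. The lowest values of complexes I, III, IV and V came without GFP-low replicate 3. Cox6a2 was the 1 member called with a common floor (1.29, limma adjusted p = 0.0404) and with the trended, robust fit (1.29, limma adjusted p = 0.0158). With quantile normalization the isoform pairs Cox6a2 (1.01), Cox7a1 (0.37), Cox6b2 (1.08) and Atp5g2 (0.38) reached an adjusted exact permutation p of 0.0429; with cyclic loess they gave 1.0, 0.37, 1.06 and 0.41 at the same p. In no other setting did a pair reach 0.05: with normexp the adjusted p was 0.114, 0.300 (Cox7a1, 0.26), 0.114 and 0.114 in that order, and with normexp and quantile normalization 0.0857, 0.257 (Cox7a1, 0.25), 0.0857 and 0.114. With the slide as a block it was 0.111 for Cox6a2, Cox7a1 and Atp5g2, whose exact p of 0.0556 is the smallest that design can give.

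Same-numbered samples deviated together with correlations of 0.114, 0.153, 0.303 and 0.0647, and each sample correlated best with its own number, a hint from the data that the numbers pair the samples. As the labels do not pair them and not every correlation exceeded 0.1, they were not taken as pairs. Under a replicate block 0 genes of the whole array were called (18 without it), 0 members were called in either direction, the subunit median stayed at 0.32 and Cox6a2 had a limma adjusted p of 0.162. The isoform pairs Cox6a2, Cox7a1 and Atp5g2 had an exact permutation p of 0.125 under the replicate block (adjusted 0.250), the smallest that design can give. Over all genes limma called 44 with a common floor, 11 with the slide block or the filter on all 8 arrays, 9 with quantile normalization, 4 with the 75th percentile over probes above background and 7 with every probe on its own. It called 3 without a detection filter, 0 with cyclic loess, median scaling or a filter on 1 array, 0 within a slide and 0 to 4 without a single array. With 4 arrays a group, differences of the size most subunit genes show lie near their standard errors. Normexp took the dim probe of Cox6b2 from 1.12 to 0.85 and that of Cox8b from 0.57 to 0.42.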
